A study of Homo sapiens with 26 samples.

Results

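The axon guidance ligands and receptors of the MYCN-amplified human neuroblastoma cell line KELLY were described across 26 RNA-seq libraries in 8 groups. Members were chosen by gene symbol alone, as the semaphorins, plexins, neuropilins, ephrins, Eph receptors, Slits, Robos, netrins with netrin-Gs, and UNC5 receptors. The rule found 70 of the 26485 genes listed, 37 ligands and 33 receptors in 9 families. The rule itself used no measured value, but members were chosen with earlier results of these data known. In culture, 3 KELLY lines carried a doxycycline-inducible lentiviral vector with GFP, either without an insert (empty vector, EV) or with a hairpin that targets RUNX1T1, a transcriptional co-repressor. The hairpin lines are named sh4 and shAMB in the labels. Each line received doxycycline or the solvent DMSO for 72 h, with 3 replicates per group, so that DMSO cells of a hairpin line also carried the uninduced vector. Mouse xenografts of KELLY cells gave the other 8 libraries, of which 4 are labelled control and 4 RUNX1T1 KO. Per the study's methods, tumours grew under the skin of immunodeficient mice that were fed control food or food with doxycycline. No xenograft is labelled with the empty vector, so that effects of doxycycline food and of the hairpin cannot be told apart in tumours. The label KO is kept here as a name. A hairpin lowers a transcript rather than deleting a gene. Per the study's text, the tumours carried the one of its hairpins that was based on an Ambion siRNA, and the labels do not tie that description to the name sh4 or shAMB. The genotype labels of both hairpin lines count up within the target's name from sample to sample, and RUNX1T1, the target named by the study, was taken for all of them.

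Guidance cues steer growing nerve processes, and many of them also act in cell migration and in tumours. Secreted class 3 semaphorins bind neuropilins, which signal through plexins, while membrane-bound semaphorins mostly bind plexins directly. Slits repel through Robo receptors, netrin-1 repels through UNC5 receptors, and ephrins and Eph receptors signal in both directions between touching cells. Sympathetic neuroblasts descend from the neural crest, whose migration and axon growth use these systems.

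Depth was 35115915 to 54736733 expected counts per library in culture and 47346063 to 62378060 in xenografts, of which members took 0.145% to 0.301% and 0.178% to 0.329%. Levels are given as CPM (counts-per-million) after TMM scaling, which corrects library totals for composition. Levels of different genes are compared only as CPM per kb of gene length. The targeted gene was checked first. RUNX1T1 ranged from 33.3 to 35.01 CPM in sh4 DMSO libraries and from 30.1 to 33.9 in sh4 doxycycline libraries, and from 39.9 to 42.0 and 41.3 to 44.1 CPM in the same shAMB groups. In xenografts it ranged from 30.002 to 43.1 CPM in those labelled control and from 24.3 to 35.2 in those labelled KO. RUNX1T1 RNA was therefore not called lower with doxycycline in the sh4 line (log2 fold change -0.11 ± 0.06 SE, adjusted p = 0.117) or the shAMB line (0.06 ± 0.06, adjusted p = 0.378), nor in xenografts labelled KO (-0.23 ± 0.15, adjusted p = 0.229). Per the study's text, RUNX1T1 levels fell in KELLY cells after 72 h of doxycycline with each of its hairpins. Its immunostaining of KELLY tumours showed loss of RUNX1T1 as well. RNA counts do not measure protein. With trends on GC content and length removed from each library, as described below, RUNX1T1 was called lower with sh4 (-0.22) and in xenografts labelled KO (-0.33), but not with shAMB (-0.05). Between the uninduced lines it was lower in sh4 than in EV (-0.29 ± 0.05, adjusted p = 0.0144). These p-values, like all others below, are from edgeR's quasi-likelihood test, adjusted by Benjamini-Hochberg across every gene in the fit, and a gene was called changed at an adjusted p below 0.05. The neuroblastoma identity of the libraries was clear from its markers. All 15 adrenergic markers reported, among them HAND2, TH and DBH, were at 1 CPM or more in each group, while the 10 leukocyte markers summed to at most 4.89 CPM in any library.

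Promoter windows of 3 members are shown because each stands for a pattern described below, with PLXNC1 higher after doxycycline in both hairpin lines, SEMA3D lower in both and SEMA3E moving in opposite directions. Sequences are RefSeq's for GRCh38.p14, read 5′ to 3′ on the gene's strand over the 250 bases before a RefSeq start. PLXNC1 and SEMA3E have 2 RefSeq windows each and SEMA3D has 1, and the windows shown are those that lie outside every gene of the GENCODE 44 annotation. PLXNC1 has chr12:94148327-94148576 on the plus strand, SEMA3D has chr7:85187057-85187306 on the minus strand, and SEMA3E has chr7:83649140-83649389 on the minus strand. Capitals mark CANNTG, the E-box letters read by MYCN and by HAND2 and related factors, searched as this palindromic pattern on both strands.
PLXNC1: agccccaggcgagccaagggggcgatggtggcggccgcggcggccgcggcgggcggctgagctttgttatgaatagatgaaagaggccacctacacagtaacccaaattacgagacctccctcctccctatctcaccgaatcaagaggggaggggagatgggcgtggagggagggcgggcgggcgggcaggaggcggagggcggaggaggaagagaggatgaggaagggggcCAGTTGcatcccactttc
SEMA3D: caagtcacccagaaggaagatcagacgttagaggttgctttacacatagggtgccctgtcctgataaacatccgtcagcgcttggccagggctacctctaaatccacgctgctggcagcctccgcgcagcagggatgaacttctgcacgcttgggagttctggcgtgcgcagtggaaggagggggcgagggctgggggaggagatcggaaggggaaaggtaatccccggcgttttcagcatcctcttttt
SEMA3E: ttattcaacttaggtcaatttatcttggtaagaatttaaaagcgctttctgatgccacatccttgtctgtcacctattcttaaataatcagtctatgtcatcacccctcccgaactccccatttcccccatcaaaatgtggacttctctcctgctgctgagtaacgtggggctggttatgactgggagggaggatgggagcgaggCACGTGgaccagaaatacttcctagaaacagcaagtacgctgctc
PLXNC1 has 1 match that begins 18 bases before the start, SEMA3D has 0, and SEMA3E has 1 that begins 45 bases before the start. The other window of PLXNC1 and that of SEMA3E, not shown, hold 0 matches. The SEMA3E match is CACGTG, the form of the E-box that MYCN prefers. Of all 35116 RefSeq windows of this length, 61.8% hold CANNTG and 6.34% hold CACGTG. Of 93 windows that matched 59 of the 70 members by symbol, these shares were 50.5% and 4.30%. The members' windows had a median GC content of 65.2% against 58.0% over all windows. A match of letters is a description of the window and not a bound site.

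KELLY cells expressed members of all 9 families. In culture 53 of the 70 members had a mean of at least 1 CPM and 27 had at least 10 CPM, and in xenografts these counts were 55 and 33. Receptors carried more of the summed level per length than ligands, with 148 ± 11.3 against 96.9 ± 7.81 CPM per kb in EV DMSO libraries (SD, n = 3). The highest levels per length over the culture libraries were those of UNC5B (27.3 CPM per kb), SLIT3 (25.5), NRP1 (24.6) and UNC5C (24.0). UNC5B and UNC5C are netrin receptors, SLIT3 is a Robo ligand, and NRP1 is a receptor for SEMA3A. In EV DMSO libraries UNC5B was at 20.8 ± 3.79, SLIT3 at 21.7 ± 2.88, NRP1 at 23.5 ± 0.0950 and UNC5C at 22.7 ± 0.522 CPM per kb (SD, n = 3), so that the order of these neighbours did not hold beyond their spread. The leading member of the other families was PLXNA1 among plexins (12.004 CPM per kb), ROBO1 among Robos (11.8), SEMA6A among semaphorins (10.99), EPHB3 among Eph receptors (10.1) and EFNB3 among ephrins (6.27). Netrins were the least expressed family. NTNG2 led them, and all 6 netrins and netrin-Gs together reached 0.924 CPM per kb in EV DMSO libraries.

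The order differed in the tumours, whose table was scaled separately and whose levels are set beside those in culture without a test. ROBO2, ranked 12 per length in culture, ranked 1 in xenografts, with means of 58.7 and 305 CPM. UNC5B, ranked 1 in culture, ranked 17 in xenografts, with 188 and 36.2 CPM. UNC5C and SLIT3 stayed near the top, at ranks 2 and 3. Members with too few counts for a test were EFNA2, EPHA1, EPHA3, EPHA6, EPHB4, EPHB6, NTN4, NTN5, ROBO4 and SEMA6B in both tables, and NTN3 in culture. None of these 11 exceeded 13 counts in any culture library, and none of the 10 exceeded 27 in a xenograft library. That left 59 members tested in culture and 60 in xenografts.

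Doxycycline without a hairpin was tested in the EV line. None of the 59 members was called there by edgeR, where 0.0939% of all genes were, nor by DESeq2, and 9 had an unadjusted p below 0.05. Before induction, 2 members differed between the sh4 and EV lines, where 1.12% of all genes did. EPHA7 was lower in uninduced sh4 cells (log2 fold change -0.30 ± 0.07 SE, adjusted p = 0.0424) and ROBO2 was lower too (-0.25 ± 0.05, adjusted p = 0.0262). Both calls were fragile, with EPHA7 called in 2 and ROBO2 in 6 of the 12 other settings tried. Between uninduced shAMB and EV cells 2 members also differed, against 1.52% of all genes. PLXNA2 was lower (-0.69 ± 0.13, adjusted p = 0.0110), and so was SLIT2 (-0.45 ± 0.08, adjusted p = 0.00725), in 10 and 11 of 12 other settings.

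With doxycycline in the sh4 line, 16 of 59 members rose and 9 fell, or 27.1% and 15.3%, beside 22.9% and 18% of all genes tested. These shares are near the background. The median log2 fold change of the members was 0.01, and that of all genes was -0.00. In the shAMB line 39 members rose and 11 fell, or 66.1% and 18.6%, beside 37.6% and 28.4% of all genes, and the medians were 0.58 and 0.10. Among receptors 20 of 27 rose with shAMB and 3 fell, and among ligands 19 of 32 rose and 8 fell. In xenografts labelled KO, 21 of 60 members were higher and 8 lower than in control tumours, or 35% and 13.3%, beside 21.2% and 19.9% of all genes. Their median was 0.30, and that of all genes was 0.02. Whether the shares of members differed from the background was not tested.

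**Figure D1:**
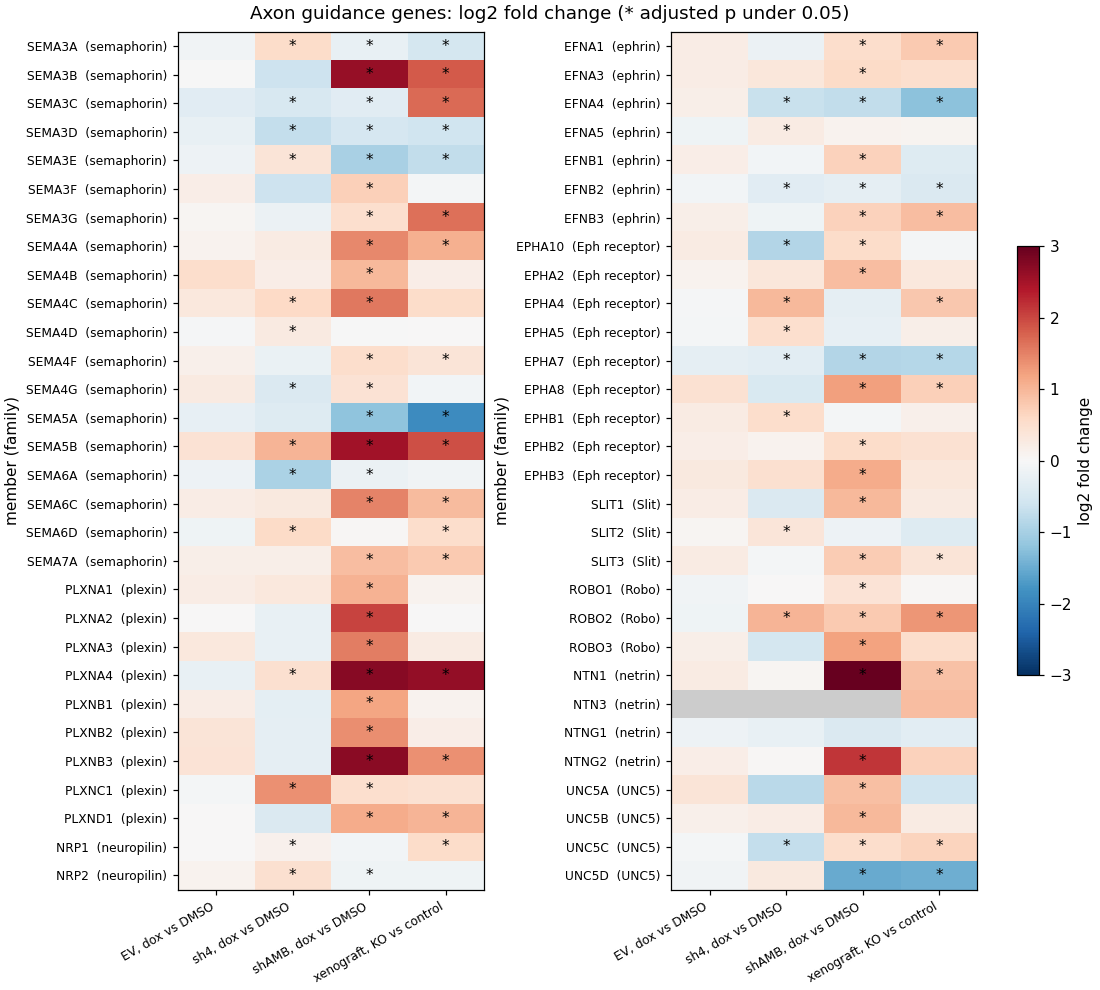
Heat map of the log2 fold change of each tested member (rows, with family) for doxycycline against DMSO in the EV, sh4 and shAMB lines and for xenografts labelled KO against control (columns). Red is higher, blue lower, grey not tested, and a star marks an adjusted p below 0.05. The EV column has no star, while the shAMB column has 50 and all 9 plexins are red there.

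Base composition moved with these groups and is given here because it touches the counts. For each library, the median log2 deviation of the genes in the top GC quintile was set against that of the bottom quintile. This tilt was -0.73 to -0.36 in the 3 shAMB DMSO libraries and 0.16 to 0.67 in the 3 shAMB doxycycline libraries, without overlap. In the sh4 line it was 0.66, 0.30 and -0.03 with DMSO and -0.50, -0.30 and 0.59 with doxycycline, so that doxycycline replicate 3 stood apart from the other two. In xenografts it was -0.63 to 0.23 in controls and -0.60 to 0.67 in those labelled KO. Of the 59 members tested in culture, 28 fall in the top GC quintile, between 58.6% and 75.3%. All 2715 tested genes of that quintile had a median log2 fold change of 0.83 with shAMB, -0.26 with sh4 and 0.24 in EV, and the 28 members had 1.08, -0.16 and 0.22.

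With trends on GC content and length removed from each library, 30 members rose and 13 fell with shAMB, 24 rose and 15 fell with sh4, and 24 were higher and 11 lower in xenografts labelled KO. In these fits the shares with shAMB were 50.8% and 22.0% of members beside 39.3% and 32.7% of all genes. With sh4 they were 40.7% and 25.4% beside 29.3% and 25.8%, and in xenografts 40.0% and 18.3% beside 28.3% and 24.4%. The median of the members with shAMB became 0.13, and that of all genes 0.06. Leaving out sh4 doxycycline replicate 3 gave 12 members higher and 19 lower with sh4. The shares of all genes in that fit were not set beside these counts, which are therefore not read as a result about the members. For many members below, the value after removal of these trends is given as well.

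Both hairpins moved 11 members in the same direction, 5 up and 6 down, or 18.6% of those tested, beside 15.9% of all genes. Another 6 moved in opposite directions. The 17 members called in both lines were 68.0% of those called with sh4 and 34.0% of those called with shAMB. The plot of one hairpin effect against the other shows each of them.

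**Figure D2:**
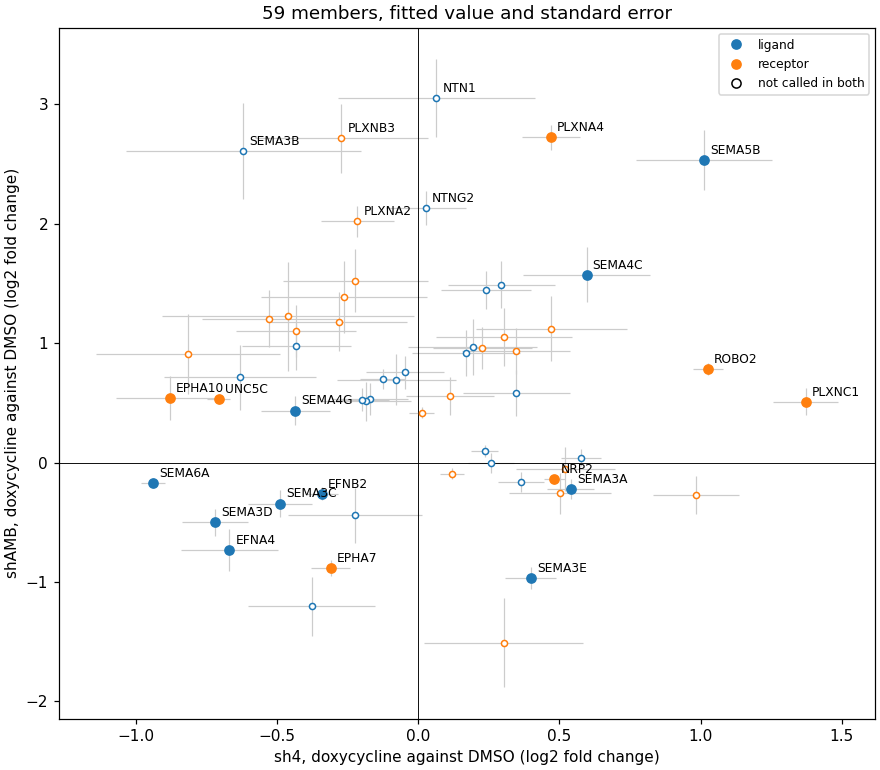
Log2 fold change with doxycycline in the sh4 line (horizontal axis) and in the shAMB line (vertical axis) for the 59 tested members, with standard errors. Filled points were called in both lines, blue for ligands and orange for receptors. SEMA5B, PLXNA4, SEMA4C, ROBO2 and PLXNC1 lie in the upper right, and 6 filled points lie in the lower left.

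Every tested plexin was higher in induced shAMB cells, as were the 3 Robos tested. All 9 plexins rose with doxycycline, 8 of them at least 2-fold, and all 9 were still called higher after removal of the GC and length trends, when 3 were at least 2-fold higher. Of all 14905 genes tested, 2108 were called at least 2-fold higher with shAMB, and 1420 after that removal. With sh4, 2 of 9 rose and none fell, and in xenografts labelled KO 3 of 9 were higher. PLXNA4, a receptor that works with neuropilins for class 3 semaphorins, had the largest change. It was at 34.0, 29.7 and 30.3 CPM in the shAMB DMSO libraries and at 200.2, 183 and 237 CPM in the shAMB doxycycline libraries. Every doxycycline library was thus far above every DMSO library, a 6.60-fold rise (log2 fold change 2.72 ± 0.11 SE, adjusted p = 8.03e-12). In the sh4 line the values were 36.7, 32.6 and 37.1 CPM with DMSO and 42.5, 52.7 and 52.1 CPM with doxycycline (0.47 ± 0.10, adjusted p = 0.00150). The groups did not overlap, but the rise was smaller than with shAMB (difference of log2 fold changes -2.25 ± 0.14, adjusted p = 5.03e-09). In the EV line PLXNA4 was at 26.2 to 35.5 CPM and was not called. Xenografts labelled control had 24.4, 32.2, 29.98 and 28.2 CPM, and those labelled KO had 166, 210, 187 and 154 CPM (2.64 ± 0.12, adjusted p = 2.61e-06). The lowest KO tumour was well above the highest control tumour.

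PLXNC1, the receptor of SEMA7A, showed the reverse order of the hairpins. It was at 4.32, 4.50 and 4.97 CPM in sh4 DMSO libraries and at 12.6, 12.4 and 10.6 CPM with doxycycline (1.37 ± 0.12, adjusted p = 1.33e-07). In the shAMB line it went from 4.66, 5.59 and 5.22 CPM to 7.77, 7.68 and 6.55 CPM (0.51 ± 0.12, adjusted p = 0.00115). The rise was larger with sh4 by 0.86 ± 0.16 on the log2 scale (adjusted p = 0.000329). In xenografts the groups overlapped, at 14.1 to 20.2 and 19.5 to 29.3 CPM, and PLXNC1 was not called (0.45 ± 0.17, adjusted p = 0.0534).

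PLXNA2 went from 60.1, 50.0 and 57.7 CPM to 209, 215 and 256 CPM with shAMB (2.02 ± 0.13), whereas sh4 libraries lay at 74.7 to 93.8 CPM with DMSO and 57.2 to 82.5 CPM with doxycycline. Its rise in shAMB began from a lower uninduced level than that of EV cells, which were at 81.5 to 103 CPM. Relative to the EV line the shAMB effect on PLXNA2 was 2.00 ± 0.18 (adjusted p = 4.12e-07). In xenografts PLXNA2 did not separate, at 121 to 165 and 122 to 177 CPM. PLXNB3, low in all DMSO libraries at 0.16 to 0.46 CPM, reached 1.19 to 1.85 CPM with shAMB (2.72 ± 0.29). It shares 20.4% of its exon bases with other annotation of the same strand, and its reads may be split. The other 5 plexins, PLXNA1, PLXNA3, PLXNB1, PLXNB2 and PLXND1, rose in shAMB by 1.05 to 1.52 on the log2 scale, but with the GC and length trends removed these values became 0.13 for PLXNA1, 0.80 for PLXNA3, 0.46 for PLXNB1, 0.52 for PLXNB2 and 0.49 for PLXND1. PLXND1, a receptor for SEMA3E, rose with shAMB (1.10 ± 0.21 before that removal) and was higher in xenografts labelled KO (1.02 ± 0.19, adjusted p = 0.00173).

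**Figure D3:**
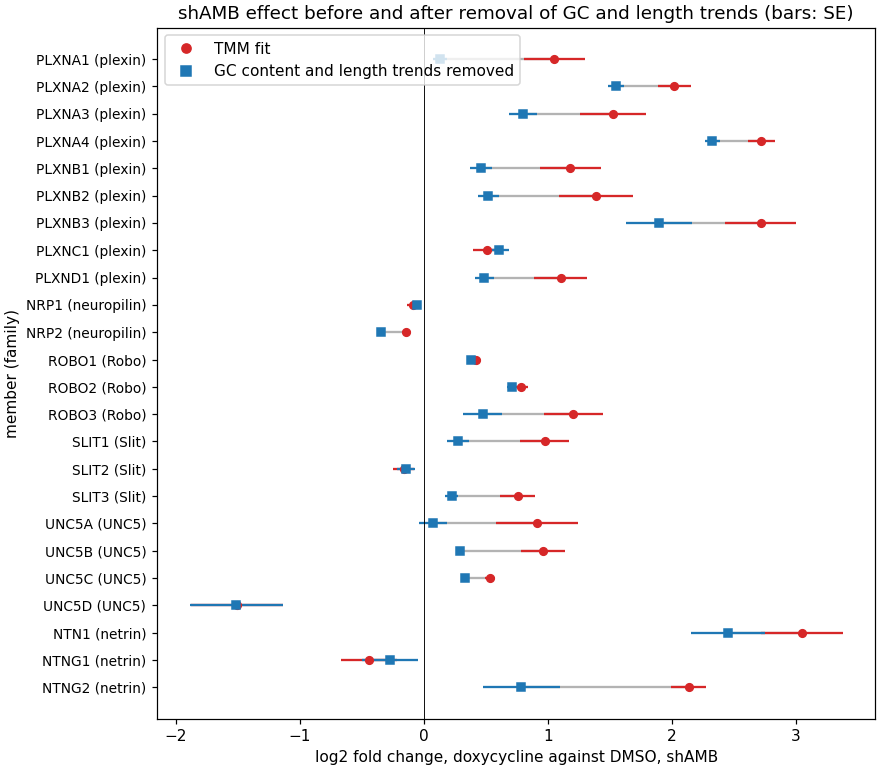
Log2 fold change with doxycycline in the shAMB line (horizontal axis) for plexins, neuropilins, Robos, Slits, UNC5 receptors and netrins, from the TMM fit (red circles) and after removal of trends on GC content and length (blue squares), with standard errors. All 9 plexins stay to the right of 0, while PLXNA1 moves from 1.05 to 0.13 and NTNG2 from 2.13 to 0.79.

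Both neuropilins, co-receptors of the plexins for class 3 semaphorins, were called higher with sh4, and NRP2 was called lower with shAMB. NRP2 was at 86.0, 80.9 and 84.8 CPM in sh4 DMSO libraries and at 113, 120.2 and 119 CPM with doxycycline (0.48 ± 0.04, adjusted p = 6.06e-08). In shAMB it went the other way, from 78.9, 80.5 and 80.02 CPM to 72.6, 70.3 and 74.3 CPM (-0.14 ± 0.04, adjusted p = 0.00415), or by -0.35 without the GC and length trends. The 2 effects differed by 0.62 ± 0.05 (adjusted p = 1.21e-07). NRP1 was higher in xenografts labelled KO (0.55 ± 0.10, adjusted p = 0.00123). In culture NRP1 was called higher with sh4 at 0.12 ± 0.04, a call made in 3 of 12 other settings and lost, at 0.0041, without the GC and length trends.

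Among the 19 semaphorins tested, 6 rose and 4 fell with sh4, 11 rose and 6 fell with shAMB, and 9 were higher and 4 lower in xenografts labelled KO. SEMA5B, a transmembrane semaphorin with thrombospondin repeats, rose in all 3 comparisons. In sh4 it went from 1.06, 0.885 and 0.710 CPM to 1.32, 1.77 and 2.31 CPM (1.01 ± 0.24, adjusted p = 0.00315), and in shAMB from 0.517, 0.468 and 0.856 CPM to 3.13, 3.41 and 4.11 CPM (2.53 ± 0.25, adjusted p = 3.43e-07). Xenografts labelled control had 2.56, 2.82, 1.77 and 1.99 CPM and those labelled KO had 10.7, 9.48, 8.47 and 6.42 CPM (1.94 ± 0.21, adjusted p = 6.90e-05). The treated and untreated groups did not overlap in any of the 3. Relative to the change in the EV line, the rise of SEMA5B was called with shAMB and not with sh4. Its close relative SEMA5A went down in 2 of these 3 comparisons. It fell with shAMB from 1.28, 1.90 and 2.03 CPM to 0.560, 0.629 and 1.08 CPM (-1.20 ± 0.25, adjusted p = 0.000497). In xenografts it was at 8.34, 9.98, 6.79 and 8.81 CPM in controls and at 2.25, 2.39, 2.21 and 2.29 CPM in those labelled KO (-1.89 ± 0.16, adjusted p = 1.73e-05), the largest decrease among members with at least 1 CPM there. With sh4 it was not called (-0.38 ± 0.22, adjusted p = 0.196).

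The secreted class 3 semaphorins split in direction. Of 7 tested, 2 rose and 2 fell with sh4, 3 rose and 4 fell with shAMB, and 3 were higher and 3 lower in xenografts labelled KO. SEMA3D fell in all 3 comparisons. It went from 5.13, 5.31 and 5.61 CPM to 2.95, 3.50 and 3.26 CPM with sh4 (-0.72 ± 0.12, adjusted p = 0.000128) and from 6.28, 6.42 and 6.74 CPM to 4.77, 4.60 and 4.38 CPM with shAMB (-0.50 ± 0.11, adjusted p = 0.00127). In xenografts it was at 10.2 to 19.1 CPM in controls and 7.52 to 10.1 CPM in those labelled KO (-0.59 ± 0.20, adjusted p = 0.0332). The tumour groups nearly touched, and this call was made in 9 of 13 other settings. In the EV line SEMA3D was at 5.62 to 6.43 CPM with DMSO and 4.25 to 6.17 CPM with doxycycline, and relative to EV its fall was called with sh4 (-0.51 ± 0.16, adjusted p = 0.0271) and not with shAMB (-0.28 ± 0.16, adjusted p = 0.166).

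SEMA3C fell in culture but was higher in tumours labelled KO. With sh4 it went from 5.71, 6.67 and 6.81 CPM to 4.96, 4.52 and 4.17 CPM (-0.49 ± 0.11, adjusted p = 0.00252), and with shAMB from 6.85, 6.11 and 7.14 CPM to 5.33, 5.46 and 5.05 CPM (-0.34 ± 0.11, adjusted p = 0.0139). The EV line moved by a like amount that was not called, from 5.21 to 6.50 CPM with DMSO to 4.12 to 5.05 CPM with doxycycline (-0.33 ± 0.11), and neither hairpin differed from EV at the threshold. Xenografts labelled control had 0.811, 0.903, 1.02 and 0.920 CPM, and those labelled KO had 1.55, 3.71, 2.96 and 3.67 CPM (1.70 ± 0.28, adjusted p = 0.000770). SEMA3C was the only member called in opposite directions with shAMB and in xenografts, against 25 called in the same direction in both. Those comparisons share no library. Over all genes, 98 were called in opposite directions, 2525 higher in both and 2448 lower in both. With sh4 and in xenografts, 4 members were called in opposite directions, 6 higher in both and 4 lower in both. The same counts over all genes were 983, 1037 and 944.

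SEMA3E and SEMA3A, repellents that act through PLXND1 and through NRP1 with class A plexins, moved in opposite directions with the 2 hairpins. SEMA3E went from 8.69, 10.01 and 9.30 CPM to 12.8, 13.1 and 10.995 CPM with sh4 (0.40 ± 0.09, adjusted p = 0.00206) and from 12.1, 12.4 and 11.2 CPM to 6.31, 6.14 and 5.75 CPM with shAMB (-0.97 ± 0.09, adjusted p = 1.99e-07). The difference between these effects was 1.36 ± 0.13 (adjusted p = 3.20e-07). In xenografts labelled KO it was lower, at 10.1 to 13.4 CPM beside 18.2 to 21.4 CPM in controls (-0.73 ± 0.12, adjusted p = 0.000881). SEMA3A rose with sh4 from 15.3, 16.5 and 17.8 CPM to 26.1, 23.9 and 22.1 CPM (0.54 ± 0.08, adjusted p = 8.05e-05) and fell slightly with shAMB (-0.22 ± 0.08, adjusted p = 0.0290) and in xenografts labelled KO (-0.53 ± 0.11, adjusted p = 0.00253). SEMA3G rose most in tumours after PLXNA4, SEMA5B and SEMA3C among members with at least 1 CPM, from 1.47 to 2.29 CPM to 4.36 to 7.63 CPM (1.65 ± 0.22, adjusted p = 0.000197). Its rise with shAMB (0.51 ± 0.16) became -0.33 with the GC and length trends removed and was then not called.

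Of the transmembrane semaphorins, class 4 members rose in shAMB, 5 of 6 with none lower, but 3 rose and 1 fell once the GC and length trends were removed. SEMA4C, which binds PLXNB2, rose with both hairpins, although with sh4 it was not called relative to EV. In sh4 its doxycycline libraries were at 15.4, 16.8 and 28.1 CPM against 16.0, 13.5 and 10.3 CPM (0.60 ± 0.22), where the groups overlapped and 1 library was high, and the call was made in 7 of 12 other settings. In shAMB they were at 20.2, 22.3 and 25.9 CPM against 7.74, 6.60 and 8.67 CPM (1.57 ± 0.23, or 0.96 without the trends). SEMA4G fell with sh4 (-0.44 ± 0.12, adjusted p = 0.00944) and rose with shAMB (0.44 ± 0.12, adjusted p = 0.00547), the latter reduced to 0.06 without the GC and length trends. SEMA4G shares 28.0% of its exon bases with a gene on the other strand, and use of strand in counting is not stated. SEMA6A, the semaphorin with the highest level per length, went from 85.6, 86.1 and 89.3 CPM to 45.3, 45.7 and 45.1 CPM with sh4 (-0.94 ± 0.04, adjusted p = 1.79e-10). With shAMB it fell only from 83.4 to 88.9 CPM to 72.4 to 78.4 CPM (-0.17 ± 0.04, adjusted p = 0.00297), beside an EV value of -0.15 ± 0.04, which was not called. The sh4 and shAMB effects on SEMA6A differed by -0.77 ± 0.06 (adjusted p = 5.27e-08).

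**Figure D4:**
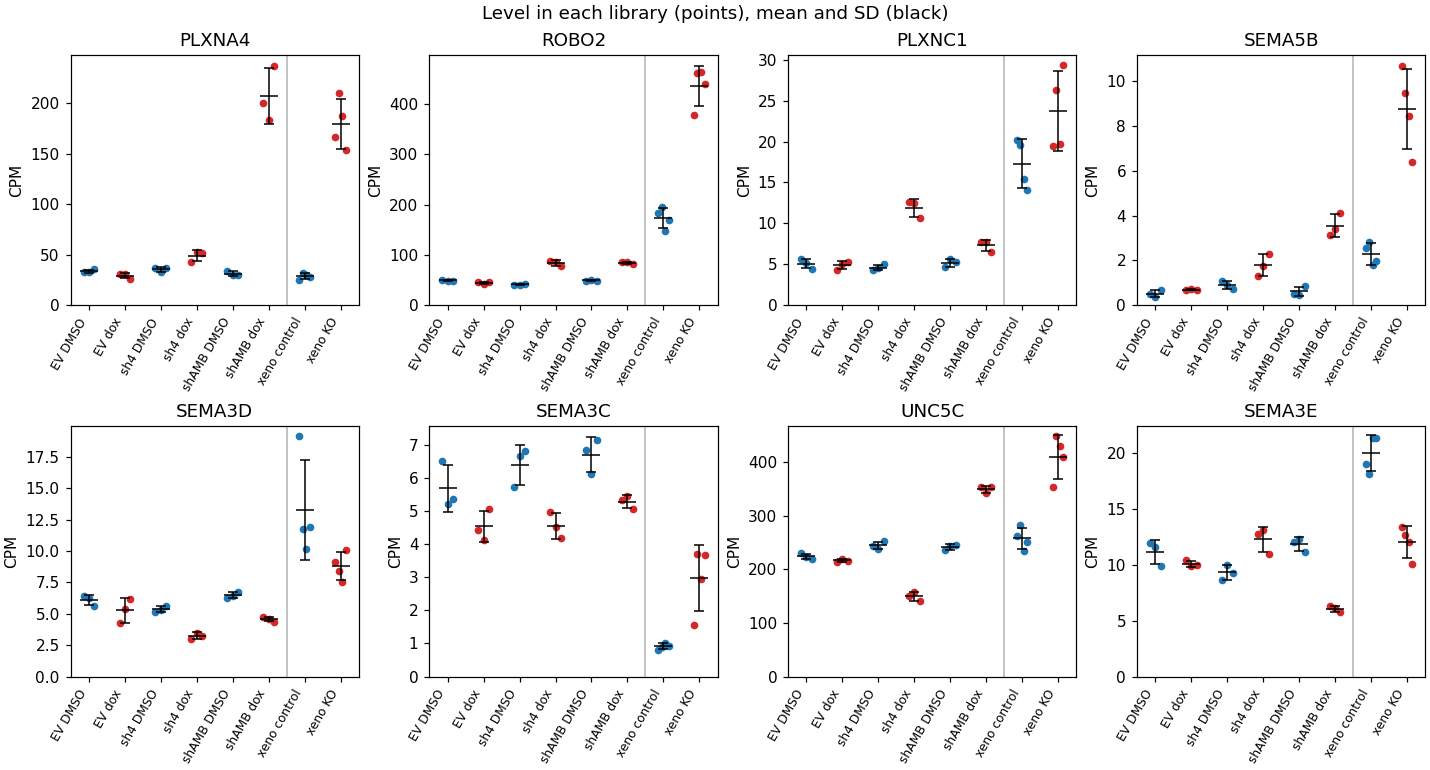
CPM in each library (points, blue for DMSO or control and red for doxycycline or KO) with mean and SD (black) for 8 members in the 6 culture groups and, right of the grey line, the 2 xenograft groups. PLXNA4, ROBO2 and SEMA5B are higher in the red groups of sh4, shAMB and xenografts, SEMA3D is lower in them, SEMA3C turns direction in tumours, and UNC5C and SEMA3E move in opposite directions in sh4 and shAMB.

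In the Slit and Robo system, the receptor ROBO2 rose in every comparison with an induced hairpin. It was at 40.7, 39.9 and 42.8 CPM in sh4 DMSO libraries and at 87.5, 86.8 and 77.0 CPM with doxycycline, a 2.04-fold rise (1.03 ± 0.05, adjusted p = 5.11e-10). In shAMB it went from 48.9, 50.1 and 48.2 CPM to 85.2, 85.9 and 82.5 CPM, a 1.72-fold rise (0.78 ± 0.05, adjusted p = 3.78e-09). EV cells went from 47.7 to 50.7 CPM to 42.6 to 46.3 CPM and were not called. The induced levels of both hairpin lines lay between 77.0 and 87.5 CPM, while the sh4 line started lower. The difference between the hairpin effects was 0.24 ± 0.07 (adjusted p = 0.0105). In xenografts ROBO2 was at 183, 195, 147 and 169 CPM in controls and at 378, 463, 463 and 440 CPM in those labelled KO (1.33 ± 0.11, adjusted p = 1.42e-05). ROBO1 rose with shAMB (0.42 ± 0.04) and not with sh4 (0.01 ± 0.04), and ROBO3, known for its part in midline crossing, rose with shAMB by 1.21 ± 0.24 or 0.47 without the GC and length trends. Among the ligands, SLIT2 rose with sh4 from 8.57 to 9.38 CPM to 11.1 to 11.8 CPM (0.36 ± 0.08), but relative to EV this was called in only 3 of 18 other settings. SLIT3 rose with shAMB (0.76 ± 0.14, or 0.22 without the trends). The sum of the Robos per length was 16.3 ± 0.400 and 21.1 ± 1.27 CPM per kb in sh4 DMSO and doxycycline libraries, 17.5 ± 0.373 and 25.8 ± 0.399 in shAMB, and 36.9 ± 3.45 and 67.4 ± 5.17 in control and KO xenografts (SD, n = 3 in culture and 4 in xenografts).

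Among netrin receptors UNC5C moved in opposite directions with the hairpins. It went from 244, 238 and 252 CPM to 149.8, 158 and 141 CPM with sh4 (-0.71 ± 0.04, adjusted p = 1.97e-09) and from 235, 243 and 246 CPM to 353, 341 and 353 CPM with shAMB (0.53 ± 0.04, adjusted p = 1.74e-08, or 0.33 without the GC and length trends). EV libraries stayed between 213 and 229.7 CPM. The hairpin effects differed by -1.24 ± 0.06 (adjusted p = 1.49e-10). Xenografts labelled KO had 353, 448, 429 and 408 CPM, all above the 262, 282, 235 and 251 CPM of controls (0.67 ± 0.10, adjusted p = 0.000413). UNC5D was low, at 0.30 to 0.49 CPM in shAMB DMSO libraries, and fell to 0.09 to 0.18 CPM or 4 to 8 counts (-1.51 ± 0.37), and it was lower in xenografts labelled KO as well (-1.48 ± 0.27). UNC5B rose with shAMB by 0.96 ± 0.18, or 0.29 without the GC and length trends. The ligand NTN1 was scarce, at 0.20, 0.47 and 0.32 CPM in shAMB DMSO libraries, and reached 2.71, 2.26 and 3.25 CPM with doxycycline (3.05 ± 0.33), the largest log2 fold change of any member in culture. In xenografts labelled KO NTN1 was higher by 0.87 ± 0.24. NTNG2 rose with shAMB by 2.13 ± 0.14, or 0.79 without the trends.

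Of 7 ephrins tested, 1 rose and 2 fell with sh4, 4 rose and 2 fell with shAMB, and 2 were higher and 2 lower in xenografts labelled KO. EFNA4, a lipid-anchored class A ephrin, was lower in all 3. It went from 7.17, 6.04 and 5.39 CPM to 3.02, 3.83 and 4.86 CPM with sh4 (-0.67 ± 0.17, adjusted p = 0.00506, or -0.37 without the GC and length trends) and from 4.16, 3.82 and 4.68 CPM to 2.42, 2.52 and 2.68 CPM with shAMB (-0.73 ± 0.18, adjusted p = 0.00189). In xenografts controls had 0.896, 2.28, 1.90 and 2.09 CPM and those labelled KO had 0.907, 0.897, 0.794 and 0.461 CPM (-1.22 ± 0.32, adjusted p = 0.0114), where 1 control tumour lay among the KO tumours. EFNA4 shares 15.04% of its exon bases with a second gene of the same strand, and its reads may be split. EFNB2, a transmembrane ephrin, fell from 23.0 to 24.0 CPM to 17.7 to 18.8 CPM with sh4 (-0.34 ± 0.06) and from 22.4 to 23.8 CPM to 17.98 to 20.6 CPM with shAMB (-0.26 ± 0.06), and it was lower in xenografts labelled KO (-0.43 ± 0.10). Relative to EV, the fall of EFNB2 was called with sh4 and not with shAMB. It shares 36.4% of its exon bases with a gene on the other strand.

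Of 9 Eph receptors tested, 3 rose and 2 fell with sh4, 5 rose and 1 fell with shAMB, and 2 were higher and 1 lower in xenografts labelled KO. EPHA7 was the receptor that fell each time. It went from 20.0, 19.5 and 22.5 CPM to 17.1, 17.2 and 15.6 CPM with sh4 (-0.31 ± 0.07, adjusted p = 0.00164), but the EV line moved by -0.27 ± 0.07 without being called, and the sh4 effect was not called relative to EV. With shAMB it fell further, from 24.1, 23.3 and 23.0 CPM to 13.4, 12.4 and 12.4 CPM (-0.88 ± 0.07, adjusted p = 2.04e-08), by -0.61 ± 0.10 relative to EV (adjusted p = 8.92e-05). In xenografts it was at 27.2 to 38.7 CPM in controls and 16.1 to 19.8 CPM in those labelled KO (-0.86 ± 0.13, adjusted p = 0.000477). EPHA4, a receptor for both ephrin classes, rose with sh4 (0.98 ± 0.15) and not with shAMB (-0.27 ± 0.16), and the difference was called (1.25 ± 0.22, adjusted p = 0.000183). EPHA10 fell with sh4 from 5.31, 4.25 and 3.43 CPM to 2.03, 2.06 and 2.99 CPM (-0.88 ± 0.19, adjusted p = 0.00149). Its rise with shAMB from 3.04 to 4.44 CPM to 4.57 to 6.02 CPM (0.54 ± 0.18, adjusted p = 0.0169) became -0.08 without the GC and length trends. EPHB2, which signals with class B ephrins, was called in both fits with opposite signs, higher with shAMB by 0.56 ± 0.16 and at -0.15 without these trends.

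Relative to the change in the EV line, 10 members rose more and 7 less with sh4, or 16.9% and 11.9%, beside 17.8% and 14.7% of all genes. The largest such differences among members with at least 1 CPM were in PLXNC1 (1.42 ± 0.16, adjusted p = 1.01e-05), ROBO2 (1.16 ± 0.07, adjusted p = 2.20e-08) and EPHA10 (-1.13 ± 0.27, adjusted p = 0.00416). Without sh4 doxycycline replicate 3 the counts of members that rose more and less were 11 and 20, again without the shares of all genes beside them. With shAMB 26 members rose more than in EV and 6 less, or 44.1% and 10.2%, beside 23.7% and 21.7% of all genes, led by PLXNA4 (2.94 ± 0.15, adjusted p = 4.93e-10), SEMA5B (2.09 ± 0.39, adjusted p = 0.000442) and PLXNA2. Both sets of differences use the same EV libraries. Tested against each other, the hairpin effects differed for 45 members, 13 higher and 32 lower with sh4, or 22.0% and 54.2%, beside 27.8% and 33.1% of all genes.

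Other genes of these pathways were counted from 3 lists. Of 19 tested receptor partners and co-ligands, 5 rose and 4 fell with sh4 (26.3% and 21.1%), 9 rose and 5 fell with shAMB (47.4% and 26.3%), and 4 were higher and 2 lower in xenografts labelled KO (21.1% and 10.5%). The shares of all genes called higher and lower, given above, were 22.9% and 18% with sh4, 37.6% and 28.4% with shAMB, and 21.2% and 19.9% in xenografts. NEO1, a receptor for netrins and repulsive guidance molecules, rose with sh4 (1.03 ± 0.07) and shAMB (0.69 ± 0.07), as did LRRC4, a netrin-G family partner at synapses (0.72 ± 0.09 and 0.97 ± 0.09, the latter 0.43 without the GC and length trends). FLRT3, which binds UNC5 receptors, fell with both (-0.78 ± 0.08 and -0.36 ± 0.08, the latter -0.20 without these trends), as did the adhesion molecule CNTN1 (-0.39 ± 0.07 and -0.71 ± 0.07). FLRT1 rose with shAMB (2.03 ± 0.28) and in xenografts labelled KO (1.77 ± 0.27), as did the adhesion molecule L1CAM (1.93 ± 0.23 and 1.10 ± 0.21). CNTN2 was higher in xenografts (1.45 ± 0.18) and rose with shAMB (1.18 ± 0.09, or 0.51 without the trends) and with sh4 (0.25 ± 0.09). LRRC4C, the netrin-G1 ligand, fell with shAMB (-2.74 ± 0.13). The chemokine receptor CXCR4 (-1.08 ± 0.20) and the receptor tyrosine kinase MET (-0.73 ± 0.10) were lower in xenografts labelled KO, and MET also fell with shAMB (-0.60 ± 0.07).

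Of 50 cytoplasmic effectors tested in culture, 8 rose and 7 fell with sh4 and 20 rose and 14 fell with shAMB, and of 51 tested in xenografts 12 were higher and 12 lower. As shares these are 16.0% and 14% with sh4, 40.0% and 28.0% with shAMB, and 23.5% and 23.5% in xenografts, so that those with shAMB are near the background. CHN2, a Rac GTPase-activating chimaerin, rose with sh4 (0.99 ± 0.08) and shAMB (0.81 ± 0.08) and in xenografts labelled KO (0.93 ± 0.20). Its paralog CHN1, which acts downstream of EPHA4, fell with shAMB (-1.18 ± 0.07) and was lower in xenografts labelled KO (-0.81 ± 0.09). The actin-binding protein ABLIM1 fell with sh4 (-0.40 ± 0.05) and shAMB (-0.95 ± 0.06) and was lower in xenografts labelled KO (-0.57 ± 0.10). FARP1, which works with class A plexins, fell with sh4 (-0.44 ± 0.05) and was lower in xenografts (-0.29 ± 0.07). SIPA1L1 rose with sh4 (0.42 ± 0.05). With shAMB the GTPase RRAS (2.26 ± 0.62) and the kinase FES (1.80 ± 0.36, or 1.13 without the trends) rose. The adaptor NCK2 fell with shAMB (-0.96 ± 0.10) and in xenografts (-0.97 ± 0.18). It also fell with sh4 (-0.27 ± 0.10), a call lost without the trends (-0.10). In xenografts RND1 was higher (0.99 ± 0.27) and DOCK1 lower (-0.81 ± 0.09). DOCK1 also fell with shAMB (-0.53 ± 0.03) but rose with sh4 (0.29 ± 0.03). Of 13 small GTPases, kinases and other actin regulators, 2 rose and 5 fell with sh4 (15.4% and 38.5%), 2 rose and 7 fell with shAMB (15.4% and 53.8%), and 1 was higher and 5 lower in xenografts labelled KO (7.69% and 38.5%). CDC42, the GTPase of filopodia, was lower in all 3 (-0.51 ± 0.08, -1.69 ± 0.08 and -1.37 ± 0.12), and PAK3, a kinase activated by it, was higher in all 3 (0.25 ± 0.09, 0.78 ± 0.09 and 0.61 ± 0.12), but its call with sh4 was lost without the GC and length trends (0.18). ROCK2 rose with sh4 (0.33 ± 0.07, or 0.14 without the trends). LIMK2 fell with sh4 (-0.43 ± 0.07) and rose with shAMB (0.63 ± 0.07, or 0.38 without the trends). PAK4 fell with shAMB (-0.82 ± 0.29, or -1.63 without the trends) and was lower in xenografts (-1.34 ± 0.29).

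Markers of other cell types and states are set beside these results because some members are also made by such cells. Host cells of the tumours are from the mouse, while a human genome is the only one named in the processing notes. In xenografts these sums therefore do not measure host cells directly, and how mouse reads were handled is not given in the sources used here. The sum of 10 endothelial markers was 4.31 to 11.8 CPM in culture and 9.35 to 17.9 in xenografts, that of 8 Schwann markers 4.95 to 8.13 and 8.44 to 12.4, and that of 10 fibroblast markers 121 to 218 and 99.3 to 198. Summed leukocyte markers rose from 1.26 to 1.81 CPM in control tumours to 3.92 to 4.89 CPM in those labelled KO. ADGRE1 was at 0 in all of these libraries. Only 3 of the 10 leukocyte markers were tested in xenografts, and 1 of them was called higher, by 4.37 on the log2 scale. Their sum also rose in culture with shAMB, from 0.715 to 0.776 CPM to 1.89 to 3.11 CPM. In the sh4 and EV lines the ranges with DMSO and doxycycline overlapped. The source of these transcripts was not tested. The sum of 10 mesenchymal state markers, a list that includes PRRX1, VIM and FN1, went from 177 to 180 CPM up to 231 to 240 CPM with sh4. It went down from 174 to 177 CPM to 111 to 115 CPM with shAMB and from 101 to 110 CPM to 73.4 to 85.5 CPM in xenografts labelled KO. The 15 adrenergic markers summed to 5605 to 6663 CPM and 6633 to 8424 CPM in sh4, to 5239 to 5580 and 9605 to 10520 in shAMB, and to 5676 to 7080 and 8352 to 11770 in xenografts. Single markers did not all follow their sum. With sh4 6 rose and 5 fell (40.0% and 33.3%), and with shAMB 9 rose and 2 fell (60.0% and 13.3%). In xenografts labelled KO 5 were higher and 3 lower (33.3% and 20.0%), and the shares of all genes are those given above. The part of these shifts in the members' changes was not tested, and in bulk RNA a change in the share of cells that make a transcript and a change in its amount per cell cannot be told apart.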

How the data were processed

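RNA sequencing covered 18 KELLY culture libraries in 6 groups and 8 KELLY xenograft libraries in 2 groups, grouped by their labels. In the culture table, Neg columns were taken as DMSO and Pos columns as doxycycline, on no other ground than these words. The authors deposited expected counts per gene, estimated counts that need not be whole (91.8% of values were whole in culture and 91.0% in xenografts), and TPM. STAR, SAMtools, RSEM and hg38 are named in the submitters' processing notes. The labels name both polyA RNA and a stranded total RNA kit, and use of strand in counting is not given in the sources used here. Columns of other units, such as the gene length, served only as stated. The culture TPM values, as deposited by the authors, served only as an alternative for the order of levels, and the xenograft TPM values were not used here.

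Expected counts were rounded, filtered with filterByExpr and scaled by TMM in edgeR 4.0.16 (R 4.3.3). The 18 culture libraries entered a single quasi-likelihood fit of 14905 genes, and the xenografts a separate fit of 15960. P-values were adjusted over all genes tested. The median biological coefficient of variation was 0.115 in culture and 0.186 in xenografts. The fit was tested on simulated data with known changes. These had the same spread setting for all genes and no trend on GC content, so that they cannot speak to effects of base composition. No 2 replicates held identical columns, and chi-square per degree of freedom between replicate counts was at least 1.80. The labels do not say that replicates came from separate cultures, so that p-values measure the spread between these samples, and any limit set by counts is one of counting error.

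Positions and exon overlaps came from GENCODE 44, and GC content of transcripts was known for 91.1% and 89.9% of the genes tested. Promoter windows were RefSeq's. Alternatives were RLE size factors, no filter on low counts, DESeq2 1.42.0, removal of loess trends on GC content and length, a replicate block, only the groups compared, and leaving out each library. Same-numbered samples did not deviate together, as 3 of 19 pairs had correlations above 0.1. Members and lists were chosen with earlier results of these data known. Another adrenergic marker is not reported here. Members were named in full where called in the same or in opposite directions with both hairpins, where they led the xenograft, uninduced or hairpin minus EV comparisons, or where they led their family per length, with a mean of at least 1 CPM. NTN1, PLXNA3, PLXNB1, PLXNB3, UNC5D, EPHA4, SEMA4C, ROBO3, PLXNB2, PLXND1 and EPHB2 fall outside that rule and were chosen after their values were seen.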

Additional observations from a re-analysis of the deposited data

Results flagged for a closer look

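In 4 of 56 xenograft groups looked at (28 named members in 2 groups of 4 tumours), 1 tumour stood apart from the other 3 by Dixon's test, where chance gives about 5%. EPHA7 was at 19.8 CPM in 1 tumour labelled KO, against 16.1 to 16.4 CPM in the rest. NTNG2 was at 9.38 CPM in 1 tumour labelled KO, against 3.89 to 4.48 CPM. ROBO1 was at 109 CPM in 1 control tumour, against 126 to 128 CPM. PLXNA2 was at 121 CPM in 1 control tumour, against 160.2 to 165 CPM.

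The effect of doxycycline differed between lines, by a test of the difference in edgeR, for the 6 members that the hairpins moved in opposite directions. As sh4 minus shAMB on the log2 scale these were EPHA10 (-1.42), UNC5C (-1.24), SEMA4G (-0.87), SEMA3E (1.36), SEMA3A (0.76) and NRP2 (0.62). It also differed between hairpin and empty vector for PLXNC1 (1.42), ROBO2 (1.16) and EPHA10 (-1.13) with sh4, and for PLXNA4 (2.94), SEMA5B (2.09) and PLXNA2 (2.00) with shAMB.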

How the results depend on the processing

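No member was called in the EV line under any alternative. The count of members called with shAMB stayed within 1.5 times of 50 under every alternative, as did those of shAMB minus EV (32), sh4 minus shAMB (45) and xenografts (29). Removal of the GC and length trends raised the count from 25 to 39 with sh4, from 17 to 30 for sh4 minus EV, from 2 to 6 for uninduced sh4, and from 11 to 21 for members moved in the same direction by both hairpins. Counts over all genes rose too, from 6091 to 8203 with sh4, from 4856 to 6617 for sh4 minus EV and from 167 to 725 for uninduced sh4. For both hairpins the count over all genes was not made in this setting. The fit of only the groups compared gave 16 with sh4, 0 for uninduced sh4 and 1 for uninduced shAMB. For uninduced sh4 there was 1 with RLE size factors, 0 with no filter on low counts and 1 with the replicate block. Leaving out each library in turn gave 20 to 31 with sh4, 14 to 31 for sh4 minus EV, 45 to 52 with shAMB, 24 to 34 for shAMB minus EV, 40 to 51 for sh4 minus shAMB, 0 to 2 for uninduced sh4, 1 to 2 for uninduced shAMB, 22 to 33 in xenografts, and 10 to 12 for both hairpins. The 31 of sh4 minus EV came without sh4 doxycycline replicate 3. For uninduced sh4 the call counts were 0 without EV DMSO replicate 1 or 2 or sh4 DMSO replicate 1 or 2, and 1 without EV DMSO replicate 3. For uninduced shAMB the count was 1 without EV DMSO replicate 3 and also 1 without shAMB DMSO replicate 2.

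Over all members tested, a direction called in either fit turned only with the GC and length trends removed, in none of the 118 fits under other settings. It did so for 5 members with shAMB, 9 for sh4 minus shAMB, 2 for shAMB minus EV, 1 with sh4 and 1 in uninduced sh4, and EPHB2 with shAMB was called in both directions. Among the members named by rule, values became -0.078 for EPHA10 and -0.33 for SEMA3G with shAMB, -0.33 for EPHA10 in uninduced sh4 against EV, and -0.12 for ROBO1 with sh4. For sh4 minus shAMB they became 0.48 for SEMA3G, 0.27 for EPHB3, 0.061 for UNC5B and 0.35 for PLXNA1. The cause was not tested. By the deposited TPM the leading member of each family kept the same rank, except NTNG2, which moved from 44 to 43. With the replicate block, sh4 had 25 members called, shAMB 50 and xenografts 24, and the numbers were not taken as pairs, since correlations of same-numbered samples ranged from -0.603 to 0.374. Depth limited the 11 members left out of the culture fit, which a change could not be tested for.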
